A study of Mus musculus with 4 samples.

Results

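The complement genes measured here were 9 transcripts of the complement system in gonadal white adipose tissue (gWAT): the C1q chains C1qa, C1qb and C1qc, the components C2, C3, C4b and Cfb, and the anaphylatoxin receptors C3ar1 and C5ar1. They were found by exact symbol in the deposited expression table, 9 of its 17335 rows, and all 9 reached 0.1 FPKM in at least 1 library, as did 15839 genes in all. FPKM divides the fragments of a gene by transcript length and by library size. The table names no unit, and FPKM was inferred from the values, whose steps scale with gene length. On that reading levels may be compared between genes as well as between libraries. The libraries came from female mice fed a high-fat diet (HFD, 60% of calories from fat) for 18 weeks, whose age is not given in the sources used here. The fl/fl library was made from Dnmt1 fl/fl littermates, which carry the floxed alleles with no Cre. The AD1KO library was made from mice with the same floxed alleles and an Adiponectin-Cre transgene, whose promoter is active in adipocytes, so that the other cells of the fat pad keep Dnmt1. RNA of 4 animals was pooled in each group, and with 1 pooled library per group the values hold no spread between animals and no test of the genotype was possible.

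Complement is a cascade of plasma proteins, made by liver and locally by tissue cells, that tags targets and calls in leukocytes. C1q, with the proteases C1r and C1s, starts the classical pathway by cleaving C4 and C2, factor B and factor D drive the alternative pathway, and both pathways meet at the cleavage of C3. The released fragments C3a and C5a act on C3ar1 and C5ar1, G protein-coupled receptors found mainly on myeloid cells. In fat, macrophages are a known source of C1q, and adipocytes are a known source of factor D, also called adipsin, and of C3.

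The reads on genes, estimated from the whole-read steps of the low FPKM values, came to 17682655 in fl/fl and 17622529 in AD1KO. Intervals given with log2 ratios and read shares are 95% intervals by the exact Clopper-Pearson method. Those of FPKM levels are exact 95% Poisson intervals of the reads. All of them cover counting error only, not the spread between animals or library preparations. A log2 ratio of AD1KO over fl/fl of 0.5 or more in size, computed after adding 0.01 FPKM, was called higher or lower. Dnmt1 itself was at 6.99 FPKM in fl/fl and 3.33 FPKM in AD1KO, a log2 ratio of -1.07 (-1.28 to -0.87). Esr1, the estrogen receptor alpha gene that the study examined downstream of Dnmt1, was at 4.82 FPKM in fl/fl and 8.44 FPKM in AD1KO, a log2 ratio of 0.81 (0.65 to 0.97). The labelled tissue showed its defining markers in both libraries, with Adipoq at 1911 FPKM in fl/fl and 3318 FPKM in AD1KO. Over all tested genes 3029 were lower and 2265 higher in AD1KO, with a median log2 ratio of -0.04.

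All 9 genes lie on the minus strand of the mm9 genome. The C1q genes are adjacent on chromosome 4, C1qb at chr4:136436044-136442102, C1qc at chr4:136445719-136448980 and C1qa at chr4:136451832-136454718. C4b (chr17:34865325-34880827), Cfb (chr17:34993319-34999463) and C2 (chr17:34999549-35035397) lie in the class III region of the major histocompatibility complex on chromosome 17. C3 is on the same chromosome at chr17:57343397-57367559, C3ar1 at chr6:122797156-122806179 and C5ar1 at chr7:16832092-16844889. The genes differ in build as well as in place, from the 2-exon receptor genes and the 3-exon C1qa gene to C3 and C4b with 41 exons each. FPKM counts reads over the whole transcript, coding and untranslated exons together.

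Promoter sequences are shown to let the 2 adjacent C1q genes and the 2 receptor genes, which were lower in AD1KO, be set beside C3, which was not. They come from RefSeq on build GRCm38.p6 and hold the 250 bases before the annotated gene start, read 5′ to 3′ on the gene's own strand: C1qb at chr4:136886201-136886450, C1qc at chr4:136892915-136893164, C3 at chr17:57228137-57228386, C3ar1 at chr6:122856158-122856407 and C5ar1 at chr7:16259339-16259588, all on the minus strand. The table used matched 5 of the 9 genes, and C1qa, C2, C4b and Cfb were not matched. Capitals mark matches on either strand to the 6 motifs searched.
C1qb: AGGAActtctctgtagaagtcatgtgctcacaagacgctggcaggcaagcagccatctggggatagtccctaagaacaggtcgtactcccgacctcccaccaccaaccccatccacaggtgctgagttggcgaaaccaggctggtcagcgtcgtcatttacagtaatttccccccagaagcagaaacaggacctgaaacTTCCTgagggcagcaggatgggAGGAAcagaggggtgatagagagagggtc
C1qc: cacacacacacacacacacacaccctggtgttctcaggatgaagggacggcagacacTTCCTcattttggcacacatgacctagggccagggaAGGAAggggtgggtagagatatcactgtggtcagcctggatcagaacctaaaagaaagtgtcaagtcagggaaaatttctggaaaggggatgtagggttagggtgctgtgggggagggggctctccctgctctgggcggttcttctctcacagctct
C3: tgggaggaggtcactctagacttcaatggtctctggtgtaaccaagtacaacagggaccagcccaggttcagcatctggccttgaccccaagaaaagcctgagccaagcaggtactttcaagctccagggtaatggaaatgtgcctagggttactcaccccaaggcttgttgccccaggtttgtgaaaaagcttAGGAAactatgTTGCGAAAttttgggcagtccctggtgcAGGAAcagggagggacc
C3ar1: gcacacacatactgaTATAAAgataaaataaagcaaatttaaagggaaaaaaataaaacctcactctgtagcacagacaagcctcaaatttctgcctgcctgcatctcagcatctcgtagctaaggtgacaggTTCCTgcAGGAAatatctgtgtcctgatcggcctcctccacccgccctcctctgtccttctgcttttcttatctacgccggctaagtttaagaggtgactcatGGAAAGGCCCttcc
C5ar1: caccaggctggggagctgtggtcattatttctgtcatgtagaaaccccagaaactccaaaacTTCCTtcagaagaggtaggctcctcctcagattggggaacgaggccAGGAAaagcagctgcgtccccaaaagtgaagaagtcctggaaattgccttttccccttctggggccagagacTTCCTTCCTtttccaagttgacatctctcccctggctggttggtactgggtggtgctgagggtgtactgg

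The motifs were AGGAA, the core bound by ETS factors such as PU.1, TTCNNNGAA for STAT factors (GAS), GAAA followed after 2 bases by another GAAA for interferon regulatory factors, GGG followed after 2 bases by TTTCC for NF-kappa B, TTGCNNAA for C/EBP factors and TATAAA for the TATA box. AGGAA occurred 3 times in C1qb, 2 times in C1qc, C3 and C3ar1, and 4 times in C5ar1. The pair nearest the 3′ end of the C5ar1 sequence overlaps by 1 base, in the run TTCCTTCCT. This motif is in 60.3% of 32851 promoters of the same length, so its presence in all 5 sequences does not set them apart. The C/EBP motif was found in C3 alone, starting at -45 from the gene start, against 9.56% of all promoters. The NF-kappa B motif (1.41% of promoters) and the TATA motif (12.4%) were found in C3ar1 alone, at -14 and -235. Neither the GAS motif (7.02%) nor the interferon motif (2.98%) was in any of the 5 windows. CpG dinucleotides, the sites that Dnmt1 keeps methylated, numbered 6 in C1qb, 2 in C1qc, 1 in C3, 5 in C3ar1 and 2 in C5ar1, against a median of 6 over all promoters. A match is a description of letters, and factor binding and methylation at these windows were not tested.

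Transcripts of all C1q chains were lower in AD1KO. C1q is the recognition unit of the classical pathway, a bundle of A, B and C chains that binds immune complexes and dying cells. C1qa (gene 12259) was at 1004 FPKM in fl/fl and 375 FPKM in AD1KO, a log2 ratio of -1.42 (-1.47 to -1.38), or 2.68-fold lower. C1qb (gene 12260) was at 1724 FPKM in fl/fl and 631 FPKM in AD1KO, a log2 ratio of -1.45 (-1.49 to -1.42), or 2.73-fold lower. C1qc (gene 12262) was at 989 FPKM in fl/fl and 399 FPKM in AD1KO, a log2 ratio of -1.31 (-1.36 to -1.27), or 2.48-fold lower. In each case AD1KO was the low library, and its counting interval lay far below that of fl/fl. Between 4.56% and 5.59% of tested genes had a ratio below those of the chains.

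These were abundant transcripts. C1qb ranked 35 among all genes by FPKM in fl/fl and 127 in AD1KO, C1qa moved from rank 84 to 246, and C1qc from 87 to 232. An estimated 62128 reads, 0.351% of the fl/fl library (0.349% to 0.354%), came from the C1q chains, against 23404 reads or 0.133% (0.131% to 0.135%) in AD1KO. The chains stayed close to the same proportions. C1qb was 1.72 times C1qa in fl/fl and 1.68 times in AD1KO on the FPKM scale, and the ratios of C1qa and C1qb to fl/fl differed by 0.03 on the log2 scale (-0.02 to 0.08), an interval that holds 0. C1qc went from 0.986 to 1.06 times C1qa. Its log2 ratio was less negative than that of C1qa by 0.11 and than that of C1qb by 0.14, with intervals for C1qa minus C1qc (-0.17 to -0.05) and C1qb minus C1qc (-0.19 to -0.09) that leave out 0.

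The components C2, C3, C4b and Cfb stayed inside the threshold, and of them only C4b was lower in AD1KO. C3, the protein on which the pathways converge and the precursor of C3a, was at 400 FPKM (399.67) in fl/fl and 416 FPKM in AD1KO. Its log2 ratio was 0.06 (0.04 to 0.08), well inside the threshold. Cfb, factor B, which supplies the protease of the alternative C3 convertase, was at 153 FPKM in fl/fl and 161 FPKM in AD1KO, a log2 ratio of 0.07 (0.02 to 0.12). C2 encodes the matching protease of the classical convertase. It was at 29.0 FPKM (28.98) in fl/fl and 39.7 FPKM in AD1KO, a log2 ratio of 0.45 (0.35 to 0.56) that fell just short of the threshold. C4b, a C4 gene whose product is the other subunit of that convertase, was at 167 FPKM in fl/fl and 134 FPKM in AD1KO, a log2 ratio of -0.32 (-0.35 to -0.28). C2 was thus the highest of the 9 ratios, with 84.1% of tested genes below it, while C4b was the lowest of these components, with 27.6% below it.

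Summed, C2, C3, C4b and Cfb gave 59127 reads in fl/fl against 58365 in AD1KO, which is a log2 difference of -0.02 (-0.04 to -0.0030). This is smaller than the upward shifts of 0.04 to 0.09 under other scalings, so its sign depends on the scaling. The summed level of these components was 749 FPKM in fl/fl and 751 FPKM in AD1KO. The summed level of the C1q chains over the same libraries was 3717 FPKM and 1405 FPKM. Of the reads of all 9 genes, the C1q chains made up 48.9% in fl/fl and 27.7% in AD1KO, and these components 46.6% and 69.2%. C3 went from 0.398 times the level of C1qa in fl/fl to 1.11 times in AD1KO. The ratios of C3 and Cfb differed by -0.01 (-0.06 to 0.04), those of C4b and C3 by -0.38 (-0.42 to -0.34), and those of C2 and Cfb by 0.38 (0.27 to 0.49). In the last pair the C2 and Cfb genes sit end to end on one strand, and Cfb was 5.27 times C2 in fl/fl and 4.05 times in AD1KO.

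Reads of some of these genes cannot be placed by sequence alone. In the mm9 annotation a read-through transcript, Gm20547, spans both C2 and Cfb, and it holds 58.0% of the 50-base windows of C2 and 81.4% of those of Cfb. C4b shares 35.2% of its 50-base windows with its neighbour C4a, which was listed at 0.09 FPKM in fl/fl and 0.04 FPKM in AD1KO. No window of the C1q chains, C3, C3ar1 or C5ar1 was found in another coding transcript. How such reads were assigned is not given in the sources used here, so the values of C2, Cfb and C4b are the less certain ones.

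**Figure D1:**
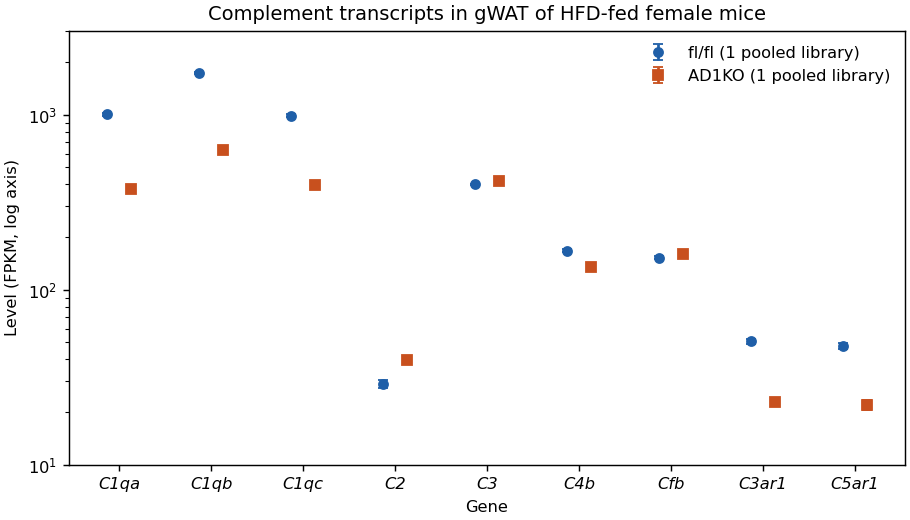
FPKM of the 9 complement genes on a log axis in the fl/fl library (circles) and the AD1KO library (squares), with 95% counting intervals that are mostly smaller than the symbols. The C1q chains and both receptors lie lower in AD1KO, for example C1qb at 1724 against 631 FPKM, while C3 and Cfb nearly coincide and C2 lies higher, at 29.0 against 39.7 FPKM.

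Both anaphylatoxin receptors were lower in AD1KO, by nearly the same factor. C3ar1, the receptor for C3a, was at 50.7 FPKM in fl/fl and 22.7 FPKM in AD1KO, a log2 ratio of -1.16 (-1.24 to -1.08), or 2.23-fold lower. C5ar1, the main receptor for C5a, was at 47.7 FPKM in fl/fl and 21.9 FPKM in AD1KO, a log2 ratio of -1.12 (-1.24 to -1.01), or 2.17-fold lower. The difference between the receptors' ratios was -0.04 with an interval of -0.18 to 0.10. Their levels did not separate either, since C3ar1 was 1.06 times C5ar1 in fl/fl and 1.03 times in AD1KO and the counting intervals overlapped in each library. The C1qa ratio lay 0.27 below that of C3ar1, with an interval of C1qa minus C3ar1 from -0.36 to -0.17. Receptor and ligand precursor parted: C3ar1 minus C3 was -1.22 (-1.30 to -1.13) in log2 ratio, and C3 went from 7.89 to 18.4 times the level of C3ar1. The precursor of C5a, encoded by Hc, was low at 0.34 FPKM in fl/fl and 0.29 FPKM in AD1KO, about 32 and 27 reads.

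Ordered by level, the fl/fl library ran from C1qb through C1qa, C1qc, C3, C4b, Cfb, C3ar1 and C5ar1 down to C2. Neighbours in that order were separated beyond counting error, except C1qa and C1qc, at 989 to 1019 and 974 to 1005 FPKM, and the receptors. In AD1KO the order was C1qb, C3, C1qc, C1qa, Cfb, C4b, C2, C3ar1 and C5ar1, with overlap between the receptors alone. C3 stood above C1qa and C1qc, and C2 above both receptors, in AD1KO and not in fl/fl. The lowest gene in fl/fl, C2, still had an estimated 1284 reads, and the lowest in AD1KO, C5ar1, 920 reads.

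Of the 9 genes, 5 were called lower in AD1KO, where 19.1% of all tested genes were, and 0 were called higher, where 14.3% were. The same 5 were lower by a log2 ratio of at least 1, against 8.95% of tested genes. The whole counting interval lay below -0.5 for those 5, against 8.38% of tested genes. Of the remaining genes, C2, C3 and Cfb made up the 3 with a whole interval above 0, which held for 21.3% of tested genes, and C4b was the sixth with a whole interval below 0, which held for 29.1%. The median log2 ratio was -1.12 over the 9 genes and -0.04 over all tested genes. At this depth the interval of each of the 9 ratios left out 0, so counting error alone does not limit their direction, while the spread between animals is unknown.

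**Figure D2:**
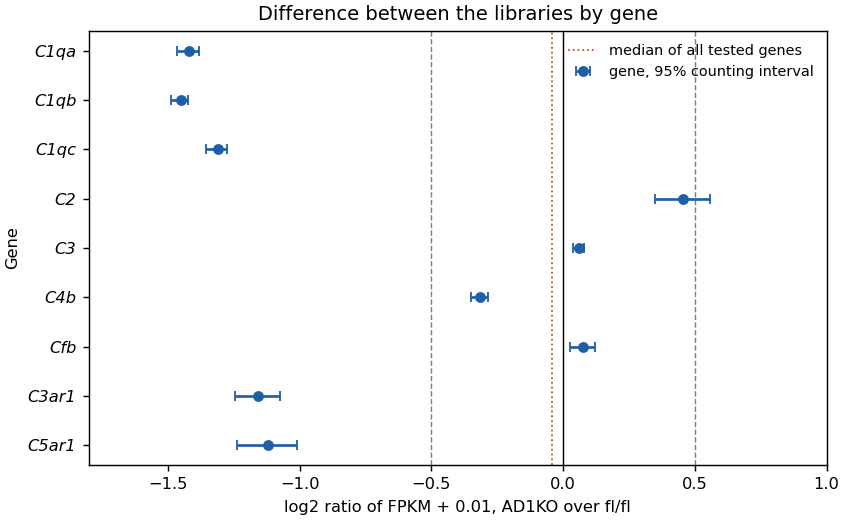
log2 ratio of AD1KO over fl/fl for the 9 complement genes, with 95% counting intervals as bars. Dashed lines stand at -0.5 and 0.5 and the dotted line at the median of all tested genes, -0.04. The C1q chains (-1.45 to -1.31) and the receptors (-1.16 and -1.12) form a group past -0.5, and C2, C3, C4b and Cfb lie between -0.32 and 0.45.

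Beyond these 9, the table held 47 further complement genes of a list arranged by pathway, of which 41 were tested. In AD1KO 7 of them were lower, 15 higher and 19 in between, with a median log2 ratio of 0.23. Over all tested genes 19.1% were lower and 14.3% higher, with a median of -0.04. The share of lower genes was thus not above that of all tested genes, while the share of higher genes was. Many had few reads, and the whole counting interval passed the threshold for 6 of the lower and 3 of the higher genes. By role, the lower genes were in the receptor group and the alternative pathway, and the higher ones were in the lectin, alternative and terminal pathways and among the regulators.

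In the classical pathway 3 of 5 listed genes were tested and none passed the threshold. C1ra and C1s1 encode the proteases that associate with C1q. C1ra was at 87.9 FPKM in fl/fl and 63.0 FPKM (62.95) in AD1KO, a log2 ratio of -0.48 (-0.55 to -0.41). C1s1 was at 136 FPKM in fl/fl and 105 FPKM in AD1KO, a log2 ratio of -0.37 (-0.42 to -0.32). The proteases were thus lower, but by less than the C1q chains, with C1qa minus C1ra at -0.94 (-1.02 to -0.86). Their near copies C1rb and C1s2, at or below 0.22 FPKM, could share reads with them, which was not checked.

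The alternative pathway held the highest ratio among the 41 tested genes of the list. Cfd, factor D, the protease that cleaves factor B and a classical adipocyte product, was at 511 FPKM in fl/fl and 1441 FPKM in AD1KO, a log2 ratio of 1.50 (1.45 to 1.53), or 2.82-fold higher. Cfp, properdin, which stabilises the alternative convertase and is made by myeloid cells, was at 131 FPKM in fl/fl and 86.4 FPKM (86.35) in AD1KO, a log2 ratio of -0.60 (-0.68 to -0.53). Factor D and properdin went opposite ways, and Cfp minus Cfd was -2.09 (-2.18 to -2.01). Cfb stood between them, with Cfd minus Cfb at 1.42 (1.36 to 1.48).

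Lectin pathway genes, whose products recognise sugars on microbes or are proteases of that pathway, were low apart from Fcna. Of 6 tested, 4 were higher in AD1KO and 0 lower, with a median of 0.70. Fcna, ficolin A, was at 27.0 FPKM in fl/fl and 39.9 FPKM in AD1KO, a log2 ratio of 0.56 (0.40 to 0.72). Colec11, a collectin, was at 0.90 FPKM in fl/fl and 1.61 FPKM in AD1KO, a log2 ratio of 0.83 (0.01 to 1.66). Mbl1, a mannose-binding lectin, was at 0.56 FPKM in fl/fl and 1.20 FPKM in AD1KO, and its interval of -0.20 to 2.51 held 0. Of the markers described with the cell type lists, the mesothelial, hepatocyte and most adipocyte markers were higher in the same library, and most macrophage markers lower. The part of any of these in the result was not tested.

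Of 6 tested genes of the terminal pathway, which builds the membrane attack complex, 3 were higher and 0 lower. C6 was at 12.5 FPKM (12.45) in fl/fl and 22.2 FPKM in AD1KO, a log2 ratio of 0.83 (0.69 to 0.98). C7 was at 1.18 FPKM in fl/fl and 2.27 FPKM in AD1KO, a log2 ratio of 0.94 (0.44 to 1.43). The third higher call, C9, rested on about 2 and 6 reads, at 0.07 FPKM in fl/fl and 0.21 FPKM in AD1KO, and its interval of -0.90 to 4.92 held 0. C8a, C8b and Hc were at or below 0.34 FPKM, and C8g was at 2.13 FPKM in fl/fl and 2.63 FPKM in AD1KO.

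Among soluble regulators, 5 of 10 tested genes were higher and 0 lower, but only Clu had its whole interval past the threshold. Clu, clusterin, which holds back the terminal complex, was at 59.2 FPKM in fl/fl and 103 FPKM in AD1KO, a log2 ratio of 0.80 (0.72 to 0.89). Serping1, the C1 inhibitor, was at 518 FPKM in fl/fl and 437 FPKM in AD1KO, a log2 ratio of -0.24 (-0.28 to -0.21). Vtn, vitronectin, was at 11.2 FPKM in fl/fl and 13.1 FPKM in AD1KO, a log2 ratio of 0.23 (0.01 to 0.45). Neither Serping1 nor Vtn passed the threshold.

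Of the membrane regulators, which protect host cells, the 4 abundant ones stayed inside the threshold. Cd59a, which blocks the membrane attack complex, was at 170 FPKM (170.48) in fl/fl and 226 FPKM in AD1KO, a log2 ratio of 0.41 (0.35 to 0.46), and its near copy Cd59b at 19.8 and 23.4 FPKM (23.35), a log2 ratio of 0.24 (-0.00091 to 0.46). Cd55, which speeds the decay of convertases, was at 32.4 FPKM in fl/fl and 36.3 FPKM in AD1KO, a log2 ratio of 0.16 (0.05 to 0.26). Cr1l, the rodent regulator also called Crry, was at 49.8 FPKM in fl/fl and 46.9 FPKM in AD1KO, a log2 ratio of -0.09 (-0.20 to 0.02). Of 6 tested genes in the group 2 were higher, Cd46 and Susd4, both under 0.5 FPKM.

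The remaining receptors went the way of C3ar1 and C5ar1: of 8 tested, 6 were lower and 0 higher, with a median of -0.72. Itgax and Itgam encode the alpha chains of complement receptors 4 and 3, and Itgb2 their shared beta chain. Itgax was at 51.4 FPKM in fl/fl and 20.5 FPKM in AD1KO, a log2 ratio of -1.32 (-1.42 to -1.24). Itgb2 was at 124 FPKM in fl/fl and 49.8 FPKM in AD1KO, a log2 ratio of -1.31 (-1.38 to -1.24). Itgam was at 23.1 FPKM (23.05) in fl/fl and 13.8 FPKM (13.75) in AD1KO, a log2 ratio of -0.74 (-0.86 to -0.64). The alpha chains differed, with Itgax minus Itgam at -0.58 (-0.72 to -0.44). Vsig4, a C3b receptor of tissue macrophages, was at 7.08 FPKM in fl/fl and 3.82 FPKM in AD1KO, a log2 ratio of -0.89 (-1.29 to -0.52).

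Cd93, a membrane protein first named as a C1q receptor, was at 23.8 FPKM in fl/fl and 15.8 FPKM in AD1KO, a log2 ratio of -0.59 (-0.68 to -0.50). C1qbp, a mostly mitochondrial protein that binds C1q, was at 60.7 FPKM in fl/fl and 54.8 FPKM in AD1KO, a log2 ratio of -0.15 (-0.28 to -0.03). C5ar2, the second C5a receptor, was at 1.99 FPKM in fl/fl and 1.58 FPKM in AD1KO, with an interval of -0.73 to 0.05. Its ratio lay 0.79 above that of C5ar1 (0.39 to 1.18). Cr2, the remaining lower receptor, was at 0.62 FPKM in fl/fl and 0.38 FPKM in AD1KO.

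**Figure D3:**
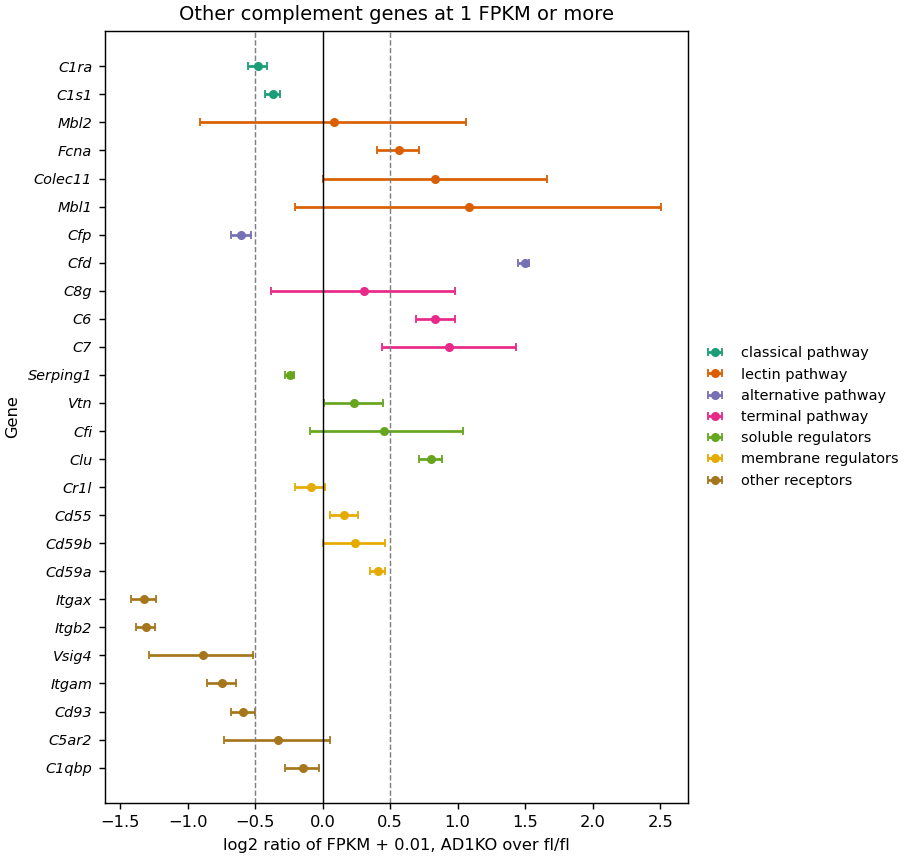
log2 ratio of AD1KO over fl/fl for 26 further complement genes at 1 FPKM or more in either library, coloured by role, with 95% counting intervals and dashed lines at -0.5 and 0.5. Cfd stands apart at 1.50, the receptors lie at or left of -0.15 with Itgax at -1.32, and rare transcripts such as Mbl1 have intervals that cross 0.

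The position of the genes was also examined, since the C1q genes and the class III genes lie in blocks. The 6 genes nearest to the C1q block in the table were between -0.46 and 0.61 in log2 ratio, with 0 lower and 1 higher. The adjoining Ephb2, a receptor tyrosine kinase, was at 3.12 FPKM in fl/fl and 4.77 FPKM in AD1KO, and Cdc42, a small GTPase, at 341 FPKM and 297 FPKM, and none of the 6 reached the threshold in the direction of the C1q genes. Around and between C4b, Cfb and C2, 9 genes ranged from -0.67 to 0.43, with 1 lower and 0 higher. That gene, Cyp21a1, was at 0.50 FPKM in fl/fl and 0.31 FPKM in AD1KO with an interval of -1.98 to 0.55. Zbtb12 lies inside the C2 gene, on the opposite strand. Its level was 2.04 FPKM in fl/fl and 2.75 FPKM in AD1KO.

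Cell type markers also differed between the libraries, and in bulk tissue fewer cells of a type and less RNA per cell cannot be told apart. Of 11 macrophage markers 9 were lower in AD1KO and 0 higher, with a median log2 ratio of -0.98, a range of -2.03 to 0.30 and a summed level of 5058 FPKM in fl/fl and 2485 FPKM in AD1KO. Adgre1, which encodes F4/80, was at 130 FPKM (129.88) in fl/fl and 54.3 FPKM in AD1KO, a log2 ratio of -1.26. Cd68 was at 702 FPKM in fl/fl and 326 FPKM in AD1KO, a log2 ratio of -1.11. Cd163 went the other way, at 5.39 FPKM in fl/fl and 6.62 FPKM in AD1KO, and set the top of the range. That range holds the ratios of all the complement genes measured here but C2. The highest of the other macrophage markers was Mertk, at a log2 ratio of -0.48. This lay above the ratios of the C1q chains and receptors and below those of C2, C3, C4b and Cfb. The part of macrophage content in the lower C1q and receptor levels was not tested.

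Other lists went differently. Of 10 adipocyte markers 8 were higher and 0 lower, with a median of 0.56 and a summed level of 17254 FPKM in fl/fl and 26264 FPKM (26263.5) in AD1KO. The highest of these ratios was that of Cidec at 0.96, below that of Cfd at 1.50. All 7 mesothelial markers were higher, with a median of 0.82 and sums of 88.0 FPKM (88.01) and 164 FPKM. All 6 hepatocyte markers were higher as well, with a median of 0.96 and sums of 101 FPKM and 213 FPKM, led by Alb at 40.0 FPKM (39.98) in fl/fl and 89.6 FPKM (89.55) in AD1KO. Stromal progenitor markers had a median of 0.04 with 2 of 9 lower, and endothelial markers 0.31 with none of 6 past the threshold. Of 6 neutrophil markers 4 were lower and 1 higher, S100a8, at 32.7 FPKM in fl/fl and 57.3 FPKM in AD1KO. Of the lower ones, only Csf3r had its whole counting interval past the threshold, and the intervals of Cxcr2 and Retnlg held 0. The neutrophil markers summed to 45.6 FPKM in fl/fl and 64.25 FPKM in AD1KO. Of 7 reproductive tract epithelium markers 4 were lower, with a median of -3.19 and sums of 24.3 FPKM in fl/fl and 13.7 FPKM in AD1KO. Ltf was at 5.09 FPKM in fl/fl and 0.20 FPKM in AD1KO, Ovgp1 at 3.51 and 0.17 FPKM, and Wfdc2 at 3.64 and 0.39 FPKM, so these transcripts were nearly absent from AD1KO. Krt8 and Krt18, which other epithelia also express, were at 5.32 and 5.72 FPKM in fl/fl and 6.42 and 5.91 FPKM in AD1KO. Pax8 was listed at 0.25 FPKM in fl/fl and at 0 in AD1KO. Of the lists' markers, Pax8 was the one listed at 0. The part of any of these in the levels of the 9 complement genes or Cfd was not tested.

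**Figure D4:**
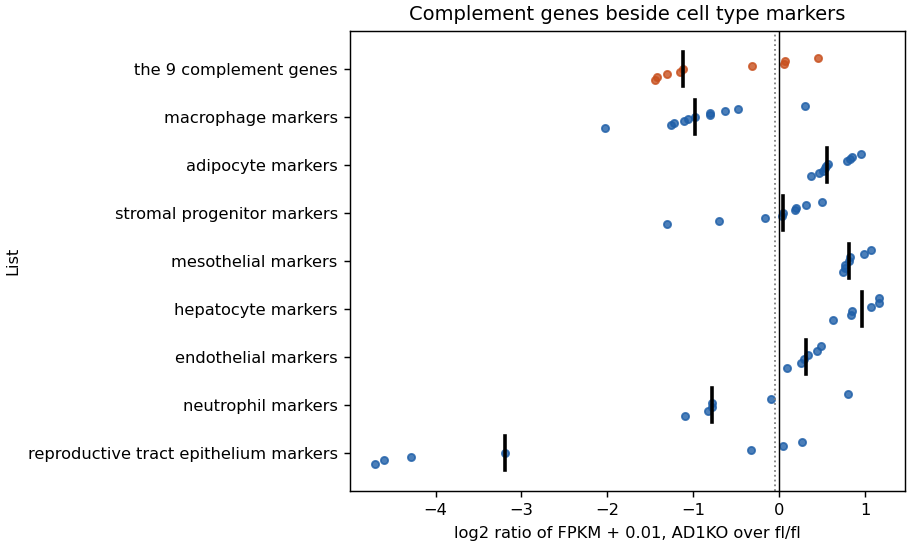
log2 ratio of AD1KO over fl/fl of each gene (points) in the 9 complement genes and in each cell type marker list, with list medians as bars and the median of all tested genes as a dotted line at -0.04. The C1q chains and receptors lie at -1.45 to -1.12 and the macrophage markers at -2.03 to 0.30 (median -0.98), whereas C2, C3, C4b and Cfb range from -0.32 to 0.45, and the adipocyte markers have a median of 0.56.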

How the data were processed

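RNA-seq of gWAT was analysed in 1 fl/fl and 1 AD1KO library, each a pool of 4 mice. The expression columns the authors deposited name no unit and were read as FPKM from their values, whose low steps are whole reads scaled by gene length and by library size. In them 0.01 stands for 0. Methods name mm9 and the labels mm9 and mm10, and the aligner and quantifier are not given in the sources used here. Deposited fold changes, P-values and FDR were not used, and the RRBS samples were not analysed here. Values of 0.01 were set to 0. Reads were estimated as the depth and length correction at which FPKM of short genes were whole reads. Of 378 values in fl/fl and 380 in AD1KO, 77.5% and 75.3% lay within 0.15 of a whole read, giving 17682655 and 17622529 reads and a median of 570 per tested gene over both. These reads are estimates. Intervals for the 14 pairs of ratios use a normal approximation on log reads. No molecular identifiers were used, so intervals cover counting error only. Tested genes had at least 0.1 FPKM in 1 library.

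Named genes were the 9 members, Dnmt1, Esr1, other complement genes at 5 FPKM or more, or past 0.5 with 1 FPKM or more, and the 3 nearest genes on each side of the C1q and C2-Cfb-C4b blocks. Genes of lower level, C4a, C8g, Hc and Cr2 among them, and the examples of the marker lists were chosen after their values were seen. Members and lists were chosen with earlier results of these data known. Of the named genes, 1 is not reported here. Positions are from GENCODE on mm9. In simulated Poisson counts of 17335 genes for AD1KO against fl/fl, 96.0% of unchanged genes had an interval holding 0. The simulation held no spread between animals or preparations, so it checks the calculation only. Alternatives were 2 pseudocounts, 2 minimum levels, 3 scalings and 2 thresholds. Analyses ran in Python 3.11.15 with pandas 2.3.3, SciPy 1.17.1 and NumPy 2.4.6, and plots were drawn with Matplotlib 3.10.9.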

Additional observations from a re-analysis of the deposited data

How the results depend on the processing

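No paired analysis was possible because each group has 1 pooled library, and for the same reason no replicate could be left out. The ratios of the 9 genes were recomputed with pseudocounts of 0.1 and 1 FPKM and with scaling by trimmed mean of M-values, the upper quartile and the median of ratios, which gave 45 values. All 45 kept their sign. An added pseudocount cannot change a sign, and the scalings shifted every ratio up by 0.04 to 0.09, too little to turn the negative ones. Of the 45 values, 17 lay outside the counting interval, all under a change of scaling. With upper quartile scaling, C2 reached 0.54 and 1 of the 9 genes was called higher instead of 0. The 5 lower calls, those of the C1q chains and receptors, were kept in every setting, at ratios of -1.45 to -1.03. C3 ranged from 0.06 to 0.15 and C4b from -0.32 to -0.23.

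Counts over all genes moved more. The number lower was 1661 with a pseudocount of 1 FPKM, 1417 at a threshold of 1 and 1327 where the whole counting interval had to pass 0.5. The number higher was 965, 910 and 653 in those settings and 1281 with a minimum of 1 FPKM. With upper quartile scaling 48.0% of calls were lower, against 57.2%. Depth was no limit for the 9 genes, at 920 reads or more each. The libraries by themselves do not measure the spread between animals, library preparation or differences in cell content. By staining and flow cytometry, the paper reported fewer macrophages in gWAT of HFD-fed female AD1KO mice than of fl/fl mice. Reads shared by C2 and Cfb with Gm20547 and by C4b with C4a could not be assigned here.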

Other observations

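Several complement genes known mainly from liver were at low levels in this fat depot. C9, which forms the pore of the membrane attack complex, was at 0.07 FPKM in fl/fl and 0.21 FPKM in AD1KO, about 2 and 6 reads. C4bp, a regulator of the classical pathway, was at 0.29 and 0.42 FPKM, about 9 and 13 reads. Masp1, a protease of the lectin pathway, was at 0.38 FPKM in fl/fl and 0.79 FPKM in AD1KO, a log2 ratio of 1.04 (0.32 to 1.76) on about 26 and 53 reads.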
